A study of Mus musculus with 26 samples.

Results

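The genes described here are 8 mouse transcription factor genes that set or mark progenitor fate in the forebrain: the proneural genes Neurog1, Neurog2, Neurod1 and Neurod4, the intermediate progenitor genes Eomes and Insm1, and the oligodendrocyte lineage genes Olig1 and Olig2. They were chosen by name, and each was read from the array row that carries its symbol. Of the 8 genes, 7 were measured, out of 19505 genes with a symbol. Neurod1 was not analysed here, because no row used here names it. Each of the 7 measured genes had 1 row, so no choice between rows was needed.

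The study asked how the synthetic glucocorticoid dexamethasone (Dex) acts on gene expression in neural stem and progenitor cells, and whether the stem cell factor SOX2 bears on that action. Cortical cultures were grown from the telencephalon of C57BL/6 mice with EGF and FGF, with each animal's cells kept apart. The labels call the tissue fetal or embryonic in some fields and postnatal day 0 in others. The 4 groups were wild-type (WT) cells with ethanol vehicle, WT cells with Dex, SOX2 knockout (KO) cells with vehicle and SOX2 KO cells with Dex. All cells were at passage 3, Dex was given at 100 nM, and both treatments lasted 4 h. There were 6 WT cultures, numbered 1 to 6, and 7 SOX2 KO cultures, numbered 7 to 13, each with 1 vehicle and 1 Dex array, 26 arrays in all. Both sexes were used, and no sex is given for an array. How and in which cells Sox2 was deleted is not given in the sources used here.

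Neurogenins and NeuroD proteins are basic helix-loop-helix (bHLH) factors. They pair with E proteins, bind E-boxes and push a progenitor towards the neuronal fate, while the Hes and Id proteins hold them in check. In the dorsal telencephalon Neurog2 lies upstream of Eomes, also called Tbr2, which marks the intermediate progenitors of glutamatergic neurons, and Insm1 promotes the formation of such progenitors. Olig1 and Olig2 are bHLH factors too. Olig2 is needed for oligodendrocyte precursors, is expressed in many cycling neural progenitors, and is readily kept by progenitors grown with EGF and FGF.

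Promoter sequences are shown for Olig2 and Neurog1, because theirs were the only promoters of the measured genes to hold a short SOX-type core. A RefSeq promoter (GRCm38.p6, 250 bases before to 50 after the gene start) was found for 6 of the 8 genes, 7 windows in all, and not for Insm1 and Olig1. The Olig2 window is chr16:91225300-91225599 on the plus strand, and the Neurog1 window is chr13:56252131-56252430 on the minus strand. Capitals mark CATTGT, which is the SOX core ACAATG read on the other strand, and the TATA box motif TATAAA.
Olig2: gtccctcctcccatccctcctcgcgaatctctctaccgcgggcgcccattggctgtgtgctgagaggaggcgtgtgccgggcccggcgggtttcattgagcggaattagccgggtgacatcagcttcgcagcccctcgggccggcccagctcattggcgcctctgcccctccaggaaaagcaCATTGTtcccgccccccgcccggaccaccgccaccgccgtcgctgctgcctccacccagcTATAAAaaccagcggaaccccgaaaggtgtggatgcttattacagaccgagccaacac
Neurog1: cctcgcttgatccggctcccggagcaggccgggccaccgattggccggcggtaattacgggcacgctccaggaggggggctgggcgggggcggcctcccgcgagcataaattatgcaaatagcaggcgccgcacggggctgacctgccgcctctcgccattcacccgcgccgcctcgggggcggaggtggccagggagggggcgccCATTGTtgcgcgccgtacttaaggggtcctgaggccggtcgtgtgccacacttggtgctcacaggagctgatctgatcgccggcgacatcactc
The SOX core began 68 bases before the start of Olig2 and 44 bases before that of Neurog1. Of all 32841 promoters searched, 12.6% held ACAATG and 18.7% held ACAAAG, the other SOX core, on either strand. The TATA box of Olig2 began 8 bases before the start, and 13.6% of all promoters held TATAAA. E-boxes (CANNTG), present in 72.3% of all promoters, were found as CACTTG at bases 5 to 10 after the start of Neurog1 and as CAGCTG at bases 5 to 10 in 1 of the 2 Neurod4 windows, and in none of the windows of Neurog2, Eomes and Olig2. The core hexamer of glucocorticoid elements, AGAACA, was in 19.0% of all promoters, and the full element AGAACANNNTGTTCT in 3 of them. Neither was in a window of the measured genes, which says only that these letters are not in these 300-base windows.

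The genotype and treatment labels were checked first. Sox2 lay between 12.17 and 14.39 on the WT arrays and between 3.92 and 6.50 on the SOX2 KO arrays (values in log2 units), with no overlap. Fkbp5, which encodes a partner of the chaperone complex of the glucocorticoid receptor and is a textbook glucocorticoid-induced gene, was higher with Dex in 7 of 7 SOX2 KO cultures and in 5 of 6 WT cultures. In culture 4 (WT) it was 2.03 lower on the array labelled Dex than on the array labelled vehicle. The Dex effects were therefore also fitted without that culture, and those values for WT are given with the Dex comparison below. Array medians lay between 6.58 and 7.01 and upper quartiles between 9.49 and 10.53, so the deposited arrays do not share a common distribution. After the mean of each group was removed gene by gene, the cultures were cut by profile into 3 clusters that the labels do not mention. The number 3 was set and not found, and mean differences between groups could not shape the clusters. Cultures 1, 2, 3, 7 and 8 were in cluster 1, cultures 4, 10 and 12 in cluster 2, and cultures 5, 6, 9, 11 and 13 in cluster 3. The stem and progenitor marker list had all 12 of its genes above the median of the array (as the median over arrays), the neuron list 9 of 12, the oligodendrocyte lineage list 10 of 14, and the endothelial, microglial and fibroblast lists 0 of 8, 1 of 7 and 2 of 5. In bulk RNA such as this, fewer cells of a type and less RNA per cell cannot be told apart.

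The measured genes stood at opposite ends of the signal range in all 4 groups. Olig1 and Olig2 were among the brightest rows on every array, while the proneural and intermediate progenitor genes were all below the middle. A percentile here is the share of the 19505 genes on the same array at or below the value. Rows of different genes use different probes, so percentiles place a signal within its array and do not rank amounts of transcript. Over the 26 arrays Olig1 lay between the 98.1 and 99.6 percentiles and Olig2 between the 96.1 and 99.4 percentiles. Neurog2 lay between 26.3 and 44.7, Insm1 between 5.7 and 35.1 and Eomes between 6.5 and 40.9. Neurod4 lay between 0.9 and 18.9 and Neurog1 between 0.5 and 18.8, the lowest median of the 7 at 5.6. No detection call came with the values, so whether the lowest signals stand above background is not known. Neither the loss of SOX2 nor Dex moved any of the 7 genes past the threshold in the comparisons that follow.

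**Figure D1:**
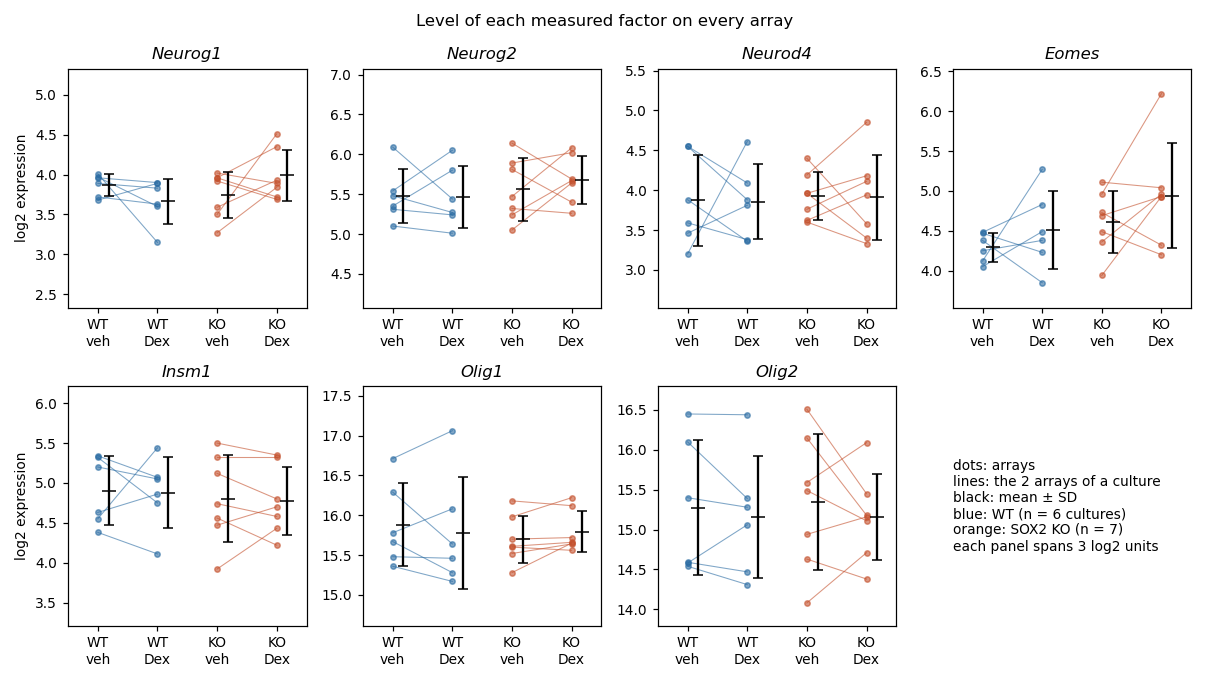
Level (log2 expression) of the 7 measured genes on each of the 26 arrays, by group (WT or SOX2 KO, vehicle or Dex). Dots are arrays, thin lines join the vehicle and Dex arrays of a culture, black marks are the mean ± SD (n = 6 WT, n = 7 SOX2 KO), and every panel spans the same number of log2 units. The 4 groups overlap in each panel, and the widest scatter is that of Olig2 between cultures.

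Olig2, the factor that oligodendrocyte precursors depend on, kept a high signal in both genotypes. Its level in WT vehicle arrays was 14.54 at the lowest, 15.00 at the median and 16.45 at the highest, and in SOX2 KO vehicle arrays it was 14.08, 15.49 and 16.51. With Dex the lowest, median and highest were 14.31, 15.17 and 16.44 in WT and 14.38, 15.16 and 16.09 in SOX2 KO. The genotypes covered nearly the same range, and all 4 groups overlapped. Over culture means (the mean of a culture's vehicle and Dex arrays) the difference of SOX2 KO minus WT was 0.03 ± 0.34 (SE), with a 95% confidence interval of -0.68 to 0.74. The difference was 0.06 ± 0.38 in vehicle and -0.00 ± 0.38 in Dex. Dex minus vehicle was negative in 5 of 6 WT cultures and in 4 of 7 SOX2 KO cultures, with mean differences of -0.12 ± 0.21 and -0.19 ± 0.19 (SE). The lowest differences, -1.06 and -0.97, were in SOX2 KO cultures 12 and 13, which had the highest vehicle values of their genotype.

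Olig1, the neighbouring family member with a part in oligodendrocyte maturation, had the narrower spread of the pair. In vehicle its lowest, median and highest levels were 15.36, 15.72 and 16.71 in WT and 15.28, 15.61 and 16.18 in SOX2 KO. With Dex they were 15.17, 15.55 and 17.06 in WT and 15.56, 15.66 and 16.22 in SOX2 KO. Culture 4 held the highest value under each treatment, and the genotypes overlapped. SOX2 KO minus WT over culture means was -0.09 ± 0.23 (SE; 95% interval -0.57 to 0.40) and 0.13 ± 0.19 without culture 4, so the sign of this small difference rests on that culture. Dex minus vehicle was -0.10 ± 0.14 in WT, lower in 4 of 6 cultures, and 0.10 ± 0.13 in SOX2 KO, higher in 5 of 7 cultures.

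Neurog2, the main neurogenin of the cortex, had the highest signal percentile of the proneural genes but was below the middle of the array throughout. Its lowest, median and highest levels in vehicle were 5.10, 5.42 and 6.09 in WT and 5.05, 5.47 and 6.14 in SOX2 KO. With Dex they were 5.01, 5.36 and 6.05 in WT and 5.26, 5.67 and 6.08 in SOX2 KO. The 4 groups overlapped over most of their range. Over culture means, SOX2 KO minus WT was 0.15 ± 0.17 (SE; 95% interval -0.22 to 0.51). Dex minus vehicle was -0.01 ± 0.18 in WT and 0.12 ± 0.16 in SOX2 KO, and single cultures moved either way, from -0.65 to 0.51 in WT and from -0.45 to 0.61 in SOX2 KO.

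Neurog1, a neurogenin whose functions overlap with those of Neurog2 in early cortical progenitors, was near the floor of the arrays. In vehicle its lowest, median and highest levels were 3.68, 3.92 and 4.01 in WT and 3.27, 3.92 and 4.02 in SOX2 KO. With Dex they were 3.15, 3.73 and 3.90 in WT and 3.69, 3.89 and 4.51 in SOX2 KO. The vehicle medians were alike, and the Dex arrays of SOX2 KO reached above all those of WT in 3 cultures, 9, 10 and 12, while the groups still overlapped. Dex minus vehicle was -0.20 ± 0.17 (SE) in WT and 0.24 ± 0.16 in SOX2 KO. It was negative in 5 of 6 WT cultures (5 of 5 without culture 4, from -0.86 to -0.06) and positive in 4 of 7 SOX2 KO cultures, up to 1.01 in culture 9. The difference between those Dex effects, 0.45 ± 0.24 (95% interval -0.05 to 0.95), was the largest interaction of the 7 genes, and its limma adjusted p over all genes was 0.9988. All 26 values lay at or below the 18.8 percentile of their array.

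Neurod4, a bHLH factor that acts downstream of the neurogenins, had lowest, median and highest vehicle levels of 3.20, 3.74 and 4.55 in WT and 3.60, 3.96 and 4.40 in SOX2 KO. With Dex the levels were 3.36, 3.84 and 4.61 in WT and 3.33, 3.94 and 4.85 in SOX2 KO. The groups overlapped fully in the middle of their ranges. Over culture means SOX2 KO minus WT was 0.06 ± 0.19 (SE; 95% interval -0.35 to 0.47). Dex minus vehicle averaged -0.02 ± 0.24 in WT and -0.01 ± 0.22 in SOX2 KO, with single cultures from -0.82 (culture 7) to 1.41 (culture 6).

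Eomes, the T-box marker of intermediate progenitors, had the largest genotype difference of the 7 genes, and that difference did not pass the test. In vehicle its lowest, median and highest levels were 4.05, 4.31 and 4.48 in WT and 3.94, 4.69 and 5.11 in SOX2 KO. With Dex they were 3.85, 4.44 and 5.27 in WT and 4.20, 4.93 and 6.22 in SOX2 KO. The SOX2 KO medians were the higher under both treatments, and the ranges overlapped. The difference of SOX2 KO minus WT was 0.32 ± 0.26 (SE) in vehicle, 0.43 ± 0.26 in Dex and 0.38 ± 0.20 over culture means (95% interval -0.04 to 0.80; limma adjusted p = 0.8982). The value 6.22 came from culture 12, and the other 6 SOX2 KO Dex arrays lay between 4.20 and 5.04. Without culture 12 the difference over culture means was 0.24 ± 0.17 and that in Dex 0.22 ± 0.22. Dex minus vehicle was 0.22 ± 0.23 in WT and 0.33 ± 0.21 in SOX2 KO, positive in 4 of 6 and 4 of 7 cultures, and 0.18 ± 0.20 in SOX2 KO without culture 12.

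Insm1, a zinc finger factor of delaminating progenitors, had genotype ranges that overlapped. In vehicle its lowest, median and highest levels were 4.38, 4.92 and 5.34 in WT and 3.92, 4.74 and 5.50 in SOX2 KO. With Dex they were 4.11, 4.96 and 5.44 in WT and 4.22, 4.70 and 5.35 in SOX2 KO. The genotype difference (SOX2 KO minus WT) over culture means was -0.10 ± 0.22 (SE; 95% interval -0.57 to 0.37). With the array cluster as a covariate it was 0.05 ± 0.12, so its sign turned. Dex minus vehicle was -0.02 ± 0.17 in WT and -0.03 ± 0.16 in SOX2 KO.

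The comparison of genotypes was made in vehicle, in Dex and over culture means with limma, with Benjamini-Hochberg adjustment over all 19505 genes. Of the 7 measured genes 0 passed in each, where 0.559% of all genes passed in vehicle, 0.564% in Dex and 0.733% over culture means. At an unadjusted p under 0.05 the count was again 0 of 7, against 5.17%, 7.56% and 6.4% of all genes. Over culture means 5 of the 7 differences were positive, with a median of 0.06, and the median of all genes was -0.04. Of all genes, 0.231% passed as higher and 0.502% as lower in SOX2 KO over culture means. The groups overlapped for every one of the 7 genes under each treatment and over culture means. The share of all genes that overlap in this way was not counted, so this only describes the 7. A p that misses the threshold does not show that the genotypes act alike. The 95% intervals over culture means reached from -0.68 to 0.74 for Olig2, the widest, and from -0.20 to 0.40 for Neurog1, the narrowest.

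**Figure D2:**
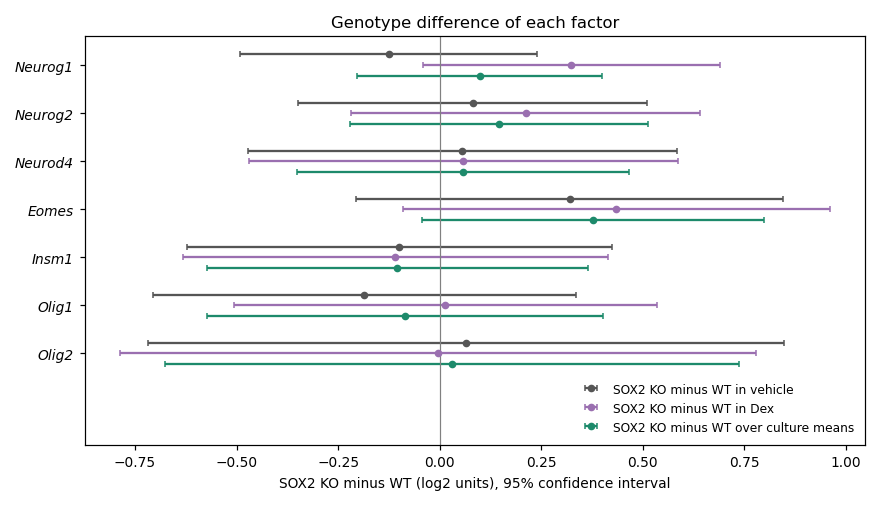
SOX2 KO minus WT (log2 units) for the 7 measured genes in vehicle, in Dex and over culture means, as limma estimates with 95% confidence intervals. Every interval holds 0, Eomes lies farthest to the right over culture means at 0.38, and Olig2 has the widest intervals.

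The Dex effect was taken within cultures, with the culture as a block. Of the 7 genes 0 passed in WT, where 0% of all genes passed, and 0 in SOX2 KO, where 0.0718% passed. At an unadjusted p under 0.05 the count was 0 of 7 in both, against 3.87% and 10.2% of all genes. The 7 mean differences ran from -0.20 (Neurog1) to 0.22 (Eomes) in WT and from -0.19 (Olig2) to 0.33 (Eomes) in SOX2 KO. For scale, Fkbp5 rose in SOX2 KO by 2.20 ± 0.32 (SE; limma adjusted p = 0.0104), and missed the threshold without culture 13 (2.09; limma adjusted p = 0.0568). Its differences in single SOX2 KO cultures lay between 1.79 and 2.83. The genotypes share an estimate of the spread, and without WT culture 4 the SOX2 KO value was 2.20 ± 0.13 (limma adjusted p = 1.15e-07). In WT the difference of Fkbp5 was 0.96 ± 0.35 (limma adjusted p = 0.9985), and without culture 4 it was 1.55 and passed (limma adjusted p = 0.000127). Without culture 4 none of the 7 genes passed, where 33 of all genes passed in WT and 49 in SOX2 KO. The differences in WT then ran from -0.29 (Neurog1) to 0.31 (Eomes), with -0.19 for Olig1 and -0.14 for Olig2. Those of Neurog2, Neurod4 and Insm1 turned from negative to positive, at 0.03, 0.07 and 0.03. For the difference of the Dex effects between genotypes, 0 of 7 passed, against 0% of all genes, and 0 of 7 at an unadjusted p under 0.05, against 3.53%. The Dex effects of the genotypes and their difference rest on the same arrays and are not separate evidence.

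**Figure D3:**
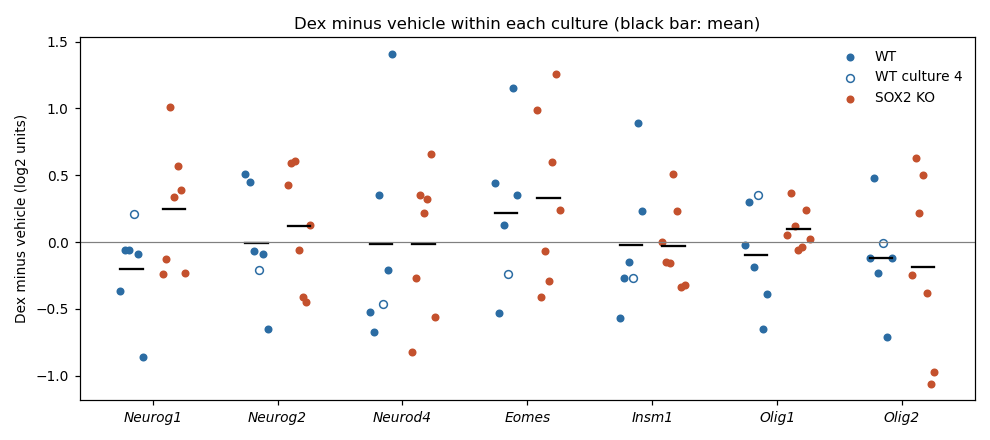
Dex minus vehicle (log2 units) within each of the 13 cultures for the 7 measured genes. Blue dots are WT cultures, the open blue circle is culture 4, orange dots are SOX2 KO cultures, and black bars are means. Each gene has cultures on both sides of 0 in both genotypes, and the largest single differences are 1.41 for Neurod4 in culture 6 and 1.26 for Eomes in culture 12.

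Much of the variation in the Olig genes lay between cultures and not between groups. The SD of culture means about their genotype mean was 0.70 for Olig2, at the 95.1 percentile of all genes, and 0.44 for Olig1. The SD between the paired arrays of a culture was 0.40 and 0.20, which put the ratio of between to within at 1.77 and 2.17, where the median of all genes was 1.20. Insm1 had a ratio of 1.42. For Neurog1, Neurog2, Neurod4 and Eomes the ratio lay between 0.55 and 0.90, so the SD between paired arrays of a culture was the larger. The between SD is of means of 2 arrays and the within SD of single arrays, so a ratio of 1 does not mark equal parts.

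The levels of Olig2 and Insm1 followed the 3 clusters of cultures. Culture means of Olig2 were 14.40 to 14.82 in cluster 1, 15.05 to 15.74 in cluster 3 and 15.84 to 16.44 in cluster 2, with no overlap. Insm1 had the reverse order, with 5.04 to 5.42 in cluster 1, 4.58 to 5.00 in cluster 3 and 4.18 to 4.39 in cluster 2. Olig1 was at 16.10 to 16.88 in cluster 2 and overlapped between clusters 1 and 3, at 15.26 to 15.93 and 15.48 to 15.96. The clusters were built from all genes, these included, so these ranges are a description with no test. The clusters also differed in signal distribution, with upper quartiles of 10.20 to 10.53 in cluster 1, 9.49 to 9.88 in cluster 2 and 9.69 to 9.91 in cluster 3, and the part of that difference in these levels was not tested.

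Within the clusters the genotype differences of the Olig genes were negative or near 0. For Olig2, SOX2 KO minus WT was -0.14 in cluster 1, -0.54 in cluster 2 and -0.20 in cluster 3. With the cluster as a covariate it was -0.25 ± 0.14 (SE) over culture means (limma adjusted p = 0.4463), against 0.03 ± 0.34 without it. The clusters came from these same arrays, so the covariate takes up part of their spread by construction. Errors and p-values with the covariate are therefore a description and not a separate test. For Olig1 the differences were -0.00, -0.76 and -0.10, where cluster 2 holds a single WT culture, culture 4. The mean of Eomes was higher in SOX2 KO in all 3 clusters, by 0.25, 0.62 and 0.17. The value in cluster 2 rests on culture 12, at 5.59, while SOX2 KO culture 10 was at 4.345 and WT culture 4 at 4.35. With the covariate Eomes gave 0.30 ± 0.17 (limma adjusted p = 0.4847). For Neurog1 the differences were 0.04, 0.17 and 0.16, for Neurog2 -0.15, 0.23 and 0.37, for Neurod4 -0.10, -0.03 and 0.10, and for Insm1 0.25, 0.04 and -0.13. No gene of the 7 passed with the covariate, where 376 of all 19505 genes passed in vehicle, 397 in Dex and 550 over culture means.

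**Figure D4:**
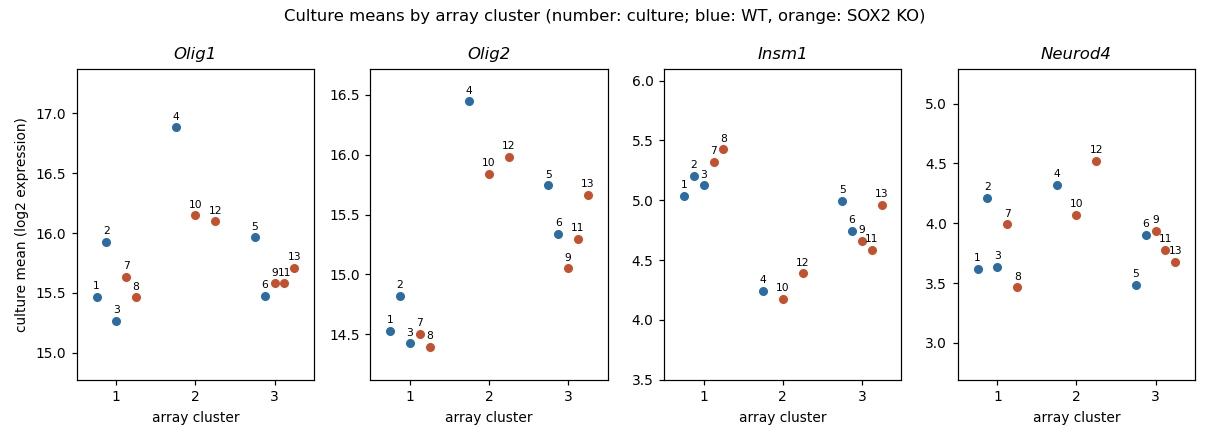
Culture means (log2 expression) of Olig1, Olig2, Insm1 and Neurod4 by cluster of cultures. Each dot is 1 of the 13 cultures with its number, blue for WT and orange for SOX2 KO, and all panels span the same number of log2 units. Olig2 is lowest in cluster 1 and highest in cluster 2, and Insm1 runs the other way.

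Correlations between the genes over the 13 culture means describe the same pattern. They are given without p-values, because the points share clusters, scaling and, within a culture, both arrays. Of the 21 pairs, 14 had r above 0 and the median r was 0.09. Olig1 and Olig2 varied together (Pearson r = 0.81, Spearman rho = 0.84, 0.86 within WT and 0.81 within SOX2 KO). Insm1 ran against Olig2 (r = -0.82, rho = -0.85) and against Olig1 (r = -0.64). Neurod4 was positively related to Olig1 (r = 0.65) and negatively to Insm1 (r = -0.59). Neurog2 and Eomes, neighbours in the dorsal neurogenic sequence, had r = 0.49 over all cultures, with -0.30 within WT and 0.81 within SOX2 KO. A difference between those values was not tested.

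Among the 9750 other genes with a mean level above the median, those most like each member over the 13 culture means were found by Pearson r. For Olig2 they were Rnf44 (0.94), Ubap2l (0.94) and Ctxn1 (0.92). For Olig1 they were Fsip1 (0.93), Fth1 (0.92), which encodes ferritin heavy chain, and Marcks (0.89), which encodes a substrate of protein kinase C. For Insm1 they were Pdpr (0.96), Lyplal1 (0.94) and Ankrd13a (0.94). The values for Eomes and Neurog2 were lower: Pi4k2b (0.84), Zfp54 (0.84) and Prss33 (0.77) for Eomes, and the histone demethylase genes Kdm4b (0.77) and Kdm6b (0.71), then Defb8 (0.68), for Neurog2. Picking the highest of so many correlations over 13 points gives high values by itself, and r for Zfp54 with Eomes was 0.01 within WT and 0.92 within SOX2 KO.

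The genes around these factors were read from lists by role, over culture means, where 0.733% of all genes passed. Of 10 other proneural and neuronal bHLH genes measured, 0 passed, 5 were higher and 5 lower in SOX2 KO, with a median of -0.01, and those of smallest p were Olig3 (-0.22), Neurod6 (-0.20), Neurog3 (-0.12) and Ascl2 (0.08). Of the 3 E protein genes, partners of the bHLH factors, 0 passed, with 0.31 for Tcf4, 0.28 for Tcf12 and -0.10 for Tcf3.

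Among 11 genes for repressors of proneural factors, Id2, whose product sequesters E proteins, passed in vehicle, where 0.19% of all genes passed as higher. Its level there was 13.43 ± 1.19 on the 6 WT arrays and 15.24 ± 0.17 on the 7 SOX2 KO arrays (mean ± SD), and every SOX2 KO array was above every WT array (15.06 to 15.55 against 11.82 to 14.90). The difference was 1.81 ± 0.43 (SE; limma adjusted p = 0.0416). It was 1.37 ± 0.43 in Dex (limma adjusted p = 0.2077) and 1.59 ± 0.37 over culture means (limma adjusted p = 0.0613), neither of which passed. Of these fits, only that over culture means used 1 value a culture. The call in vehicle held under 11 of 21 alternatives, and leaving out any single culture other than 2, 3 and 12 ended it, with limma adjusted p up to 0.1298. Id1 and Id3, of the same family, had differences over culture means of 2.16 ± 0.54 (limma adjusted p = 0.0877) and 1.13 ± 0.40 (limma adjusted p = 0.3999), and the Notch target Hey1 had -0.72 ± 0.25 (limma adjusted p = 0.3567). None of these 3 passed.

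Of 20 proneural target and intermediate progenitor genes, 1 passed, against 0.733% of all genes over culture means. Sstr2, a somatostatin receptor gene, was lower in SOX2 KO: it fell by 1.26 ± 0.25 (SE) over culture means (limma adjusted p = 0.0216). In vehicle it fell by 1.46 ± 0.29 (limma adjusted p = 0.00678), where 0.369% of all genes passed as lower. Its vehicle level was 7.31 ± 0.74 on the 6 WT arrays and 5.85 ± 0.37 on the 7 SOX2 KO arrays (mean ± SD), with all SOX2 KO arrays (5.28 to 6.35) below all WT arrays (6.46 to 8.57). In Dex the difference was -1.06 ± 0.29 (limma adjusted p = 0.1026). Over culture means the call was lost, with limma adjusted p up to 0.0577, when culture 2, 5, 9 or 10 was left out, and in vehicle it held under all 21 alternatives run. The next by p were Elavl4 (-0.77), Ebf3 (1.10) and Ebf2 (0.40), and none passed. The list's median was 0.05, with 12 genes higher and 8 lower, where the median of all genes was -0.04.

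The patterning lists held no call over culture means, where 0.733% of all genes passed. Of 7 dorsal telencephalic genes, 3 were higher and 4 lower, with a median of -0.17, led by Emx2 (-0.53) and Nr2f1 (0.39). Of 13 ventral telencephalic and interneuron genes, which the dorsal proneural program normally opposes, 12 were lower in SOX2 KO, with a median of -0.33. Those of smallest p were Sp8 (-0.65 ± 0.20, SE), Dlx1 (-0.68 ± 0.22), Gad1 (-0.45) and Sp9 (-0.36). None passed, and these genes share cultures, so the count of 12 of 13 is a description. Of all 19505 genes, 11268 were lower over culture means, with a median of -0.04. Several ventral genes lay low in the signal range, such as Dlx5 and Lhx6, with median percentiles of 3.9 and 5.3.

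**Figure D5:**
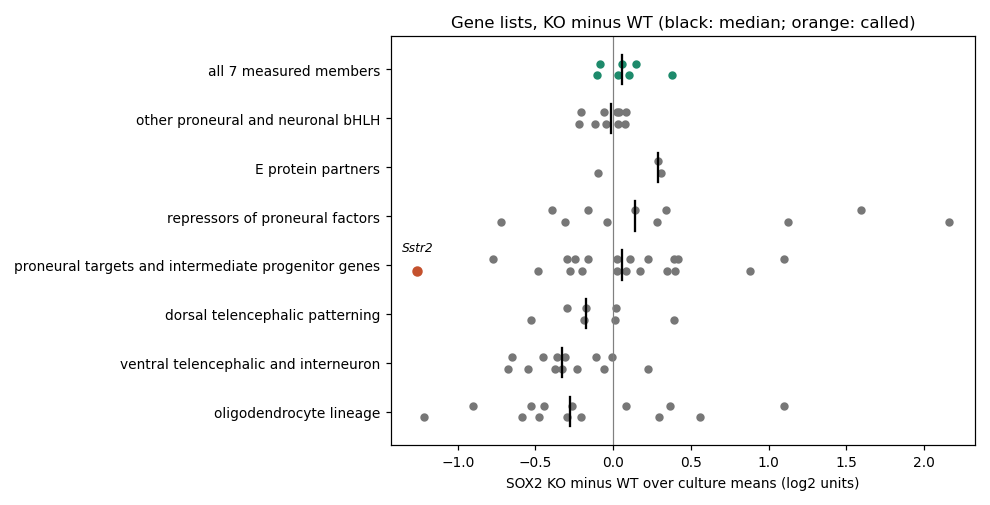
SOX2 KO minus WT over culture means (log2 units) for the 7 measured factors (green) and for 7 lists of genes related to them by role (grey), 1 dot a gene, with the list median as a black bar. Sstr2, in orange, is the gene of these lists past the limma threshold over culture means, and the ventral list lies mostly left of 0.

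Genes of the oligodendrocyte lineage, in which Olig1 and Olig2 act, were read beside the Olig genes. Of 14 measured, 0 passed in the comparison over culture means, where 0.733% of all genes passed. Of the 14, 5 were higher and 9 lower in SOX2 KO, with a median of -0.28, where 11268 of all 19505 genes were lower. Those of the 14 with the smallest p were Cspg4 (1.10 ± 0.33, SE; limma adjusted p = 0.2281), which encodes the precursor marker NG2, Bcas1 (-0.90), Nkx2-2 (-0.47) and the myelin gene Mbp (-1.22). Cspg4 passed under 1 of 19 alternatives, with the cluster as a covariate, at 1.20 (limma adjusted p = 0.0303). In that setting, whose clusters were built from these same arrays, 550 of 19505 genes passed. Over the 19 alternatives the limma adjusted p of Cspg4 reached 0.4636. In the difference of the Dex effects all 14 were negative, with a median of -0.30. Of all 19505 genes 10772 were negative, with a median of -0.03. Of the 14, 0 passed, and 1 had a limma unadjusted p under 0.05, against 3.53% of all genes. These genes share cultures, so the count of 14 is a description.

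Over the 13 culture means, r with Olig2 was -0.68 for Sox10, -0.70 for Myrf, -0.68 for Mbp and -0.78 for Mog, all of them oligodendrocyte genes, and 0.40 for Sox8. Mog lay low in the signal range, with a median level of 4.27 and a median percentile of 12.5, and its culture means spanned 0.91. Of the 14, 13 had r below 0 with Olig2. With Olig1, r was 0.72 for Sox8, -0.37 for Sox10, -0.69 for Mog and -0.28 for Mbp, and between -0.06 and 0.03 for Bcas1, Enpp6, Mag and Lhfpl3. Sox10, a factor of the committed lineage, ranged from 8.28 to 11.30 in cluster 1, from 7.47 to 9.73 in cluster 3 and from 6.44 to 7.53 in cluster 2, and the order of its medians was the reverse of that of Olig2. Mbp ranged from 7.62 to 11.24 in cluster 1, from 4.65 to 6.30 in cluster 3 and from 5.05 to 5.56 in cluster 2, so that clusters 2 and 3 overlapped. Other genes of the list had other orders. The medians in clusters 1, 2 and 3 were 14.12, 14.44 and 13.96 for Sox8, 11.40, 11.70 and 10.86 for Cspg4, 10.67, 8.19 and 8.90 for Gpr17, and 13.50, 12.76 and 12.98 for Lhfpl3. The high Olig2 signal of clusters 2 and 3 came with the lower Mbp signal, in both genotypes, and the part of cell composition or array scaling in this was not tested.

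Markers of neurons, the product of proneural action, were read beside these results. Of 12 neuron markers 1 passed over culture means, where 0.733% of all genes passed (0.502% as lower): Syt1, a synaptic vesicle protein gene, was lower in SOX2 KO, where it fell by 1.51 ± 0.30 (SE; limma adjusted p = 0.0223). The call was lost when culture 1, 9, 10 or 11 was left out, with limma adjusted p up to 0.0563. The difference was -1.59 ± 0.34 in vehicle (limma adjusted p = 0.0149) and -1.42 ± 0.34 in Dex (limma adjusted p = 0.0399), the latter call kept under 10 of 21 alternatives, with limma adjusted p up to 0.1289. The others by p were Elavl3 (-1.04), Elavl4 (-0.77) and Tubb3 (0.58), none of which passed, and the list had 9 of 12 lower with a median of -0.27. Of all 19505 genes 11268 were lower, with a median of -0.04. The markers share cultures, so the count of 9 of 12 is a description. None of the 12 stem and progenitor markers passed, and their median was -0.01. Their part in the values of the proneural genes was not tested.

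The Dex array of SOX2 KO culture 12, which gave the highest Eomes value, was also the highest of the 26 arrays for Neurod4 (4.85; others up to 4.61). Among related genes it was the highest for Neurod2 (8.09; others 5.13 to 6.35), Tbr1 (7.66; others 4.58 to 5.90) and Nhlh1 (5.50; others 3.73 to 4.90), genes of postmitotic or differentiating neurons named here after their values were seen. The vehicle array of the same culture was at 5.36, 5.30 and 4.02 for those 3 genes. The Dex array of culture 12 was the highest of all 26 for 22.1% of all genes (4306 of 19505), for 2 of the 7 measured factors, 2 of the 10 other bHLH genes, 5 of the 20 proneural targets and 0 of the 12 neuron markers. A shift of this size over so many genes moves with the Eomes value, and its part in it was not tested.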

How the data were processed

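Biotin-labelled cRNA from 26 samples was hybridised to 1-colour arrays, per the labels' protocols. The deposited table holds 22206 rows of log2 expression values from the authors, between 2.22 and 19.81; the log2 unit was read from the values, and the base, the normalization and the array software are not given in the sources used here. Of the rows, 19572 carry 1 gene symbol through GEO's platform annotation, all were matched to RefSeq by Entrez identifier, and 2634 carry none and stayed out. For 55 genes with several rows the row of highest mean was used, which left 19505 genes. The 7 measured genes of the group described have 1 row each.

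Comparisons used limma 3.58.1 in R 4.3.3 on the deposited values, with Benjamini-Hochberg adjustment over all genes, an adjusted p threshold of 0.05, no filter and no fold minimum. Dex effects and their difference between genotypes were fitted on all 26 arrays with the culture as a replicate block. Genotype differences were fitted as 4 group means, and over 13 culture means. The fit of 4 group means had no block, so paired arrays of a culture counted as separate samples in its estimate of the spread. The pairing rests on the labels, which give each number 1 vehicle and 1 Dex array and say that cells of each animal were kept apart. After removing group means, arrays of the same culture correlated at 0.31 to 0.73, against medians of -0.31 to -0.02 with other Dex arrays of the genotype. Without the replicate block 10 genes passed for Dex in SOX2 KO, against 14 with it. Errors are SD for levels and moderated SE for differences. The number of arrays limits the precision. Nothing states whether littermates were used.

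Named genes are all 8 members, Sox2 and Fkbp5 as label checks, up to 4 genes of smallest p from each list over culture means, list genes past the threshold, and the 3 genes most correlated with each of Neurog2, Eomes, Insm1, Olig1 and Olig2. Neurod2, Tbr1 and Nhlh1 were added after their values were seen. Members and lists were chosen with earlier results of these data known. Clusters of cultures were rebuilt from profiles less their group means, averaged over a culture, by average linkage on correlation. The tree was cut at a set number of 3 clusters. Other settings tried were median centring, quantile normalization, a filter at the 25th percentile of gene means, the mean of a gene's rows, a trended and robust prior, only the arrays compared, the cluster as a covariate, other handling of the block, and leaving out each culture. Fits were tested on simulated data. Tables and figures used Python 3.11.15.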

Additional observations from a re-analysis of the deposited data

Results flagged for a closer look

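Of the 42 sets of values examined for the 7 measured genes (levels in each of the 4 groups and Dex differences in each genotype), 1 held a sample far from the others: Eomes in SOX2 KO cells with Dex was 6.22 in culture 12, where the other 6 cultures lay between 4.20 and 5.04. The gap to the next culture was 0.58 of the whole range. Chance alone sets a sample apart in this way in about 1 of 20 groups. The vehicle array of the culture was at 4.96 for Eomes.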

How the results depend on the processing

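No value of the 7 measured genes passed the limma threshold under any alternative run: 0 of 291 values under other settings and 0 of 546 with 1 culture left out, where the lowest adjusted p was 0.3533. Among them 18 and 74 values had the other sign, in 23 of the 42 pairs of gene and comparison, with sizes up to 0.25, so the signs of these small differences are not settled.

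Counts over all genes moved more, and the cause was not tested. For Dex in WT, where 0 genes passed, 33 passed without culture 4, and 7 without culture 4 and without the replicate block; leaving out each culture gave 0 to 33. For Dex in SOX2 KO, with 14 genes, 31 passed with only the arrays compared, 49 without culture 4 and 10 without the replicate block; leaving out each culture gave 3 (culture 13) to 49 (culture 4), with 8 without culture 8 and 9 without culture 7 or 11. For SOX2 KO against WT in vehicle, with 109 genes, 169 passed after quantile normalization and 376 with the cluster as a covariate. In Dex, with 110, the counts were 171 and 397, and 72 with only the arrays compared; leaving out each culture gave 69 (culture 1) to 160, with 71 without culture 13. Over culture means, with 143, the counts were 219 and 550, and leaving out each culture gave 85 (culture 1) to 182, with 88, 90 and 91 without cultures 13, 9 and 2. The replicate block changed no call for the 7 genes. The choice to leave out culture 4 together with the block was made after the data were seen. The cluster covariate was built from these same arrays, so the counts with it are a description. The cluster covariate could not be fitted beside the culture block, and only the arrays compared gave no value for the difference of the Dex effects or for culture means. Neurog1, Neurod4, Eomes and Insm1 lie low in the signal range, where the lack of detection calls limits what a small difference shows.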
